A study of Mus musculus with 138 samples.

Results

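Dohh, Mpdu1, Tmx1, Mtrr, Stmn3, Mmp19 and Tacr3 are described here in every embryo of the series. They are 7 of the 25900 genes in the count tables, and all 7 were found there by symbol. They were picked because earlier results of these same data showed large falls, either in embryos that lacked maternal SMARCA5 or in embryos injected with an antibody to SMARCA5. The values in those contrasts therefore chose the genes and are given below as a description, without a test. For 6 of the 7 the deletion mean was 10.5% of the wild-type mean or less. Tmx1 went against the name of the set: its deletion mean was 17.8% of the wild-type mean, and more than 3 counts of it were found in 16 of 28 deletion embryos.

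The libraries are polyadenylated RNA from mouse embryos at the 2-cell stage, 1 library per plate well, made as the RNA part of a protocol that also reads DNA from the same embryo. In the deletion experiment, embryos labelled Smarca5 +/- (mat KO), from mothers without Smarca5 mated to WT males, were set against embryos labelled Smarca5 +/+ (called wild type below). The titles of both groups name matKO females, and embryo genotype and maternal loss cannot be told apart. In the TrimAway experiment, WT embryos had been injected as zygotes with anti-SMARCA5 antibody (a-Smarca5), which the TRIM21 system uses to mark its protein for degradation, or with IgG, or were left without injection (No injection ctrl), and libraries were made at least 24 hours later. The promoter that drove the deletion in the oocyte, the strain, and the age of the females are not given in the sources used here. Replicates are pools of embryos from several matings or injections, which the design text calls technical, so p-values below measure the spread between embryos. With at least 100000 counts required, 22 wild-type, 28 deletion, 15 uninjected, 20 IgG and 31 anti-SMARCA5 embryos were kept, with 109007 to 12004992 counts each. IgG replicate 2 had no library left, and uninjected embryos carry only the numbers 1 and 3.

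SMARCA5 is the ATPase of ISWI chromatin remodelling complexes, which space nucleosomes and open binding sites for factors. In the mouse, the main wave of transcription from the embryo's own genome starts at the late 2-cell stage, while RNA stored in the egg is degraded. A transcript low in the egg and high at this stage can come from that wave, but no egg or zygote library was used here, and whether these 7 transcripts are zygotic was not tested. The genes have unlike roles. Dohh encodes deoxyhypusine hydroxylase, which completes hypusine on the translation factor eIF5A. Mpdu1 acts in the use of dolichol-linked mannose in the endoplasmic reticulum, Tmx1 is a membrane thioredoxin of the same compartment, and Mtrr encodes methionine synthase reductase, which reactivates methionine synthase through its cobalamin. Stmn3 is a stathmin that binds tubulin, Mmp19 a secreted matrix metalloproteinase, and Tacr3 the neurokinin B receptor. In GRCm38 coordinates of the count tables, Dohh spans chr10:81384428-81391560 (+), Mpdu1 chr11:69656697-69662642 (-), Tmx1 chr12:70453095-70468040 (+) and Mtrr chr13:68560780-68582121 (-). Stmn3 spans chr2:181306459-181314500 (-), Mmp19 chr10:128790953-128800824 (+) and Tacr3 chr3:134829007-134934581 (+). The counts are per gene, and exons are not told apart.

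Because the 7 transcripts are described together, the letters before their annotated starts are shown where they differ most. Of the 7 genes, 6 had an entry in the RefSeq promoter table (GRCm38.p6). The entry of Mmp19 is missing. Motifs were searched on both strands in the 250 bases before each start, with the same window of all 32841 promoters as background, and capitals mark a match. The stretches below end where an annotated exon begins, are written 5′ to 3′ on the gene's own strand, and lie at chr10:81384184-81384427 (+) for Dohh, chr2:181314501-181314750 (-) for Stmn3, chr3:134828757-134829006 (+) for Tacr3 and chr13:68582170-68582209 (-) for Mtrr.
Dohh: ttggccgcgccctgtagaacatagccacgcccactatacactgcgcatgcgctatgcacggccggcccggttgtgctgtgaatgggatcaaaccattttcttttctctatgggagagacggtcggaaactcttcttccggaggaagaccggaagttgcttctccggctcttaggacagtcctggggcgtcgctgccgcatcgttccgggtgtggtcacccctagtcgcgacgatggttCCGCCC
Stmn3: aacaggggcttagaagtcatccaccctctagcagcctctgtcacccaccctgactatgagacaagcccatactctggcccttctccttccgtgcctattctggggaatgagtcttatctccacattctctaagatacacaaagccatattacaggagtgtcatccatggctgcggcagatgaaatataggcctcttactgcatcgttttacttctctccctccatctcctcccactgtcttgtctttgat
Tacr3: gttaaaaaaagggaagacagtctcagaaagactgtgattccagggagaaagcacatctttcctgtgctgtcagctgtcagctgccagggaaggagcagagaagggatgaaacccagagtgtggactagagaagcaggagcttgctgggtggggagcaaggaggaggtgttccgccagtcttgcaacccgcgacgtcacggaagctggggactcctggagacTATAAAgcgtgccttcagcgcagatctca
Mtrr: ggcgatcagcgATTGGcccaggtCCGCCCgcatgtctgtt
The Dohh window had 22 CpG and 59.2% GC, the Stmn3 window 3 CpG and 48.8% GC, against medians of 6 CpG and 52.4% GC over all promoters. Tacr3 held TATAAA, the TATA box, 29 bases before its start, as 12.4% of promoters did at any place. Dohh held GGGCGG, the GC box, on the opposite strand, and so did Mtrr (32.7% of promoters). Mtrr also held CCAAT, the CCAAT box, on the opposite strand (33.9%), and farther out TAATCC, an OTX- or OBOX-type homeobox word (6.25%), which lies outside the printed stretch. No motif overlapped another. CACGTG, the E-box (6.02% of promoters), and AAGGTCA, an NR5A-type site (4.08%), were found in none of the 6 genes' windows. Stmn3, Mpdu1 and Tmx1 held none of the 6 words. The 6 windows thus share no word of the list, and the counts do not tell which start was used in the embryos.

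Several libraries bear on what follows. Smarca5 RNA was 450 ± 184 CPM (counts scaled to a library total of 1000000, SD, n = 22) in wild-type and 90.8 ± 77.6 CPM (n = 28) in deletion embryos. The library labelled deletion in well A04 of replicate 2 stood apart, with 349 CPM of Smarca5 and 24.5 CPM of Gdf9, an egg growth factor whose other deletion values ran from 881 to 26736 CPM. The wild-type libraries of wells G05 and H05 had the lowest Smarca5 of their group (158 CPM) and the third lowest (209 CPM), and the highest Gdf9, 645 and 350.5 CPM. Trim21 RNA was at 0 in all 10 IgG embryos of replicate 1 and in the anti-SMARCA5 embryo of well C02, and above 3 counts in 8 of 10 IgG embryos of replicate 3 and in 30 of 31 anti-SMARCA5 embryos. The marker lists moved with the groups. The summed level of 13 genes of the 2-cell stage (of 16 listed) was 66.0 to 2685 CPM in deletion embryos (median 289) and 1007 to 2535 CPM in wild-type embryos (median 1563). Its genes did not all go the same way. Tcstv1 was above 3 counts in 26 of 28 deletion and 14 of 22 wild-type embryos, and Tcstv3 in 21 and 16. All other genes of the list had a lower share in deletion embryos, such as Obox3 (5 and 21), Zscan4c (11 and 12) and Tdpoz3 (8 and 9). That of 12 egg genes was 773 to 33238 CPM in deletion embryos (median 10166) and 359 to 4505 CPM in wild-type embryos (median 1397). The cumulus list summed to medians of 11.2 and 0 CPM, the sperm list to 1.82 and 0, and the blood list to 0.887 and 0. Of the 8 cumulus genes, Ptx3 and Inha were above 3 counts in no embryo of either group, whereas Cyp19a1 was in 11 of 28 deletion and 0 of 22 wild-type embryos, Fshr and Foxl2 in 3 and 0 each, Has2 in 1 and 0, Tnfaip6 in 5 and 4 and Amh in 1 and 1. The part of these lists in the results on the 7 genes was not tested, and fewer cells and less RNA per cell cannot be told apart.

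Dohh had the deepest fall after maternal deletion of the 7. In wild-type embryos its lowest, median and highest levels were 0.233, 94.5 and 367 CPM, and in deletion embryos 0, 0 and 31.8 CPM. The wild-type embryo of well A02 held 2 counts of Dohh in a deep library, and the other 21 wild-type embryos had at least 14.9 CPM. The groups overlapped: apart from A02, the deletion embryos of wells C05 (31.8 CPM) and A04 (19.7 CPM) lay above the lowest wild-type embryos of replicate 1. The means were 125 ± 107 CPM (SD, n = 22) and 2.88 ± 7.19 CPM (n = 28), so that the deletion mean was 2.31% of the wild-type mean. Without wells A04, G05 and H05 it was 1.71%. More than 3 counts, the limit used for detection throughout, were found in 20 of 22 wild-type and 4 of 28 deletion embryos, all 4 of them in replicate 2. The fitted log2 change was -5.10 (SE 0.73), the fourth lowest of 8518 genes tested.

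Mpdu1 and Tmx1, both of the endoplasmic reticulum, were lost less evenly. Mpdu1 stood at 14.9, 66.1 and 199.6 CPM (lowest, median and highest) in wild-type embryos and at 0, 0 and 116 CPM in deletion embryos. Its deletion mean of 9.42 ± 26.5 CPM, 10.5% of the wild-type mean of 89.7 ± 63.8, rested on 2 embryos of replicate 2, A04 with 116 CPM and A03 with 85.1 CPM. All other deletion embryos were at 22.8 CPM or less, and without A04, G05 and H05 the share was 6.18%. Detection fell from 21 of 22 to 9 of 28 embryos, and the log2 change was -3.08 (SE 0.70). Tmx1 had 0, 48.1 and 93.2 CPM in wild-type and 0, 3.13 and 30.8 CPM in deletion embryos. It was at 0 counts in 4 of the 8 wild-type embryos of replicate 1, and detection was 17 of 22 against 16 of 28 embryos. The deletion mean was 46.3% of the wild-type mean in replicate 1 (7.495 against 16.2 CPM, n = 13 and 8) and 13.3% in replicate 2 (7.57 against 57.1 CPM, n = 15 and 14). The deletion means of the 2 replicates were thus close to each other, and the wild-type means were far apart. The log2 change was -2.06 (SE 0.66), rank 902 from the lowest.

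Mtrr, the gene of methionine synthase reductase, had 0, 45.5 and 119.8 CPM in wild-type and 0, 0 and 34.1 CPM in deletion embryos. Wild-type embryos of replicate 2 were all above 10 CPM, whereas 4 of 8 in replicate 1 held 3 counts or fewer. The means were 50.5 ± 37.4 and 3.60 ± 7.71 CPM (7.12%), detection was 18 of 22 and 7 of 28 embryos, and the log2 change was -3.54 (SE 0.72). The highest deletion values were in C05 (34.1 CPM) and E04 (23.0 CPM) of replicate 2.

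Stmn3, Mmp19 and Tacr3 act in the cytoskeleton, outside the cell and in signalling. Stmn3 had 0, 81.5 and 290.4 CPM in wild-type and 0, 0 and 23.1 CPM in deletion embryos. In replicate 2 every wild-type embryo (25.5 CPM or more) lay above every deletion embryo. In replicate 1 the wild-type embryos ran from 0 to 52.3 CPM and overlapped the deletion embryos, which reached 9.96 CPM. The deletion mean was 2.75% of the wild-type mean, detection was 19 of 22 against 8 of 28, and the log2 change was -4.90 (SE 0.71). Mmp19 had 8.21, 61.8 and 234 CPM in wild-type and 0, 0 and 21.0 CPM in deletion embryos, means of 76.0 ± 55.8 and 2.13 ± 4.63 CPM (2.80%). Only A03 and A04 of the 28 deletion embryos exceeded the lowest wild-type embryo. Detection was 20 of 22 against 5 of 28, and the log2 change was -4.87 (SE 0.64). Tacr3 was the rarest: 0, 7.18 and 88.5 CPM in wild-type embryos, and 0 counts in 27 of 28 deletion embryos, the exception being A03 with 20.4 CPM. All 13 deletion embryos of replicate 1 were at 0, where the exact Clopper-Pearson interval reaches 24.7% (95%, counting error only). That interval is a description, because the choice of the genes used this contrast. Tacr3 did not pass the low-count filter and has no fitted change.

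All 6 genes that passed the filter were called lower in the deletion fit (edgeR, adjusted p under 0.05), where 26.4% of all genes were called lower and 56.6% were called in either direction. The rule used this contrast, so nothing is read from that count. Depth differed between the groups and replicates. Deletion embryos had a median of 1618486 counts (702651 in replicate 1 and 4686051 in replicate 2). Wild-type embryos had 545265 (429980 and 650105). The part of depth in detection was not tested. The plot of levels by embryo shows the zeros of the deletion group beside the other 4 groups.

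**Figure D1:**
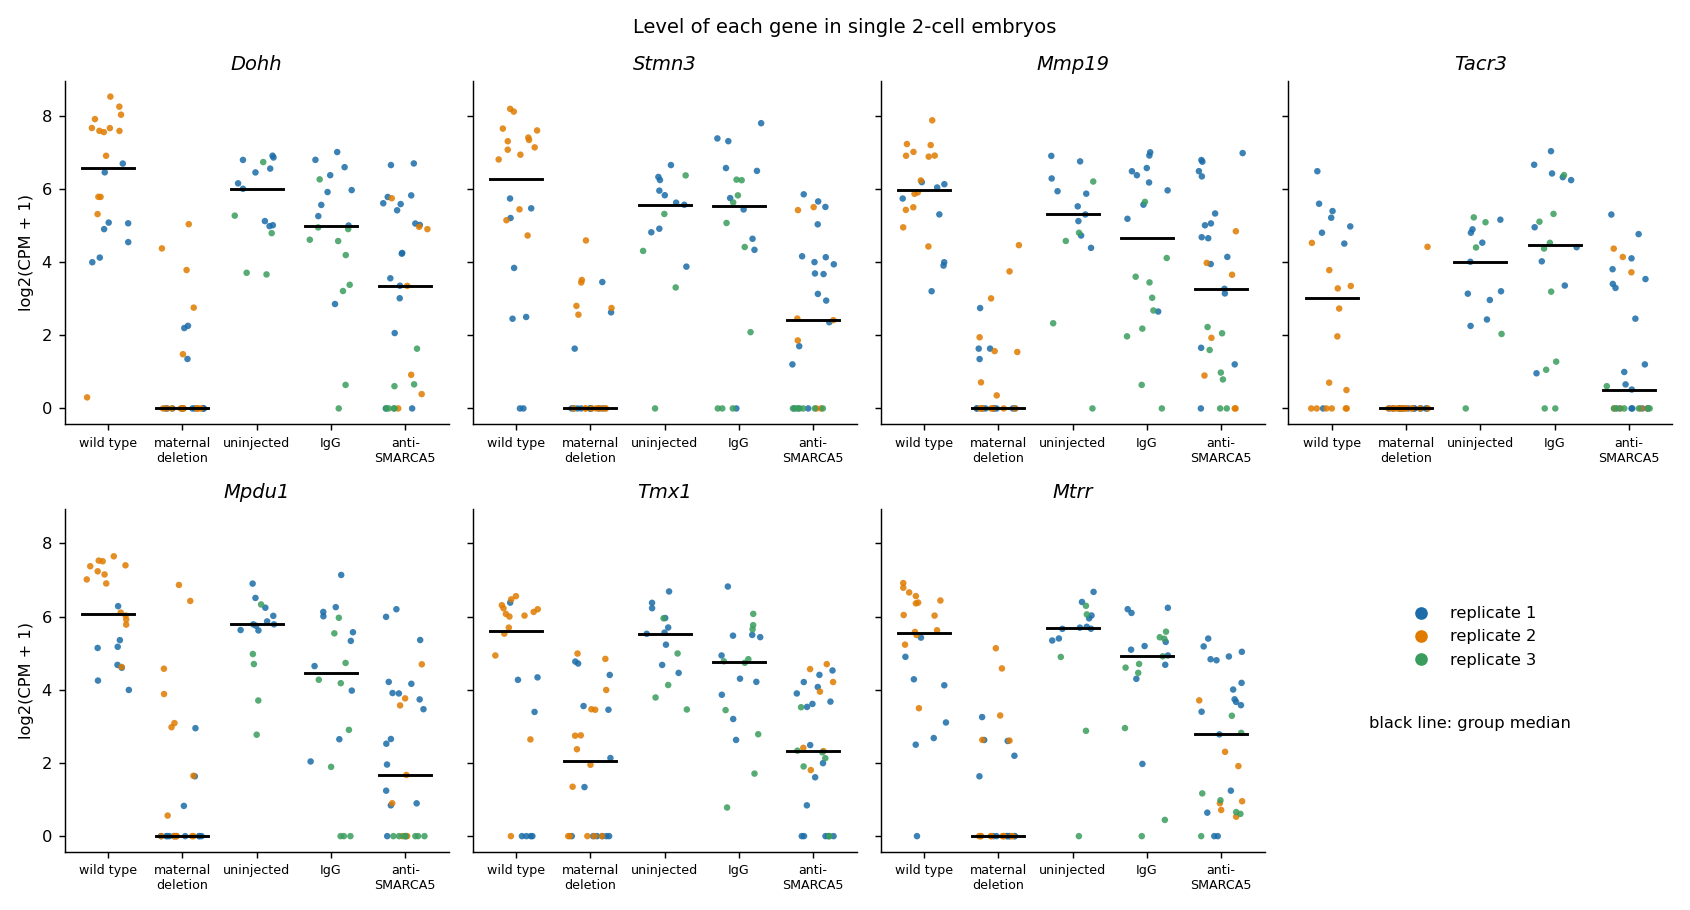
Each point is 1 embryo, coloured by replicate, with the group on the horizontal axis and log2(CPM + 1) of the gene on the vertical axis; black lines are group medians. The deletion median is 0 CPM for every gene except Tmx1 (3.13 CPM), and anti-SMARCA5 embryos spread from 0 to control levels.

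The number of the 7 genes that an embryo held is given as a description, because the genes were chosen for falls in these groups. Wild-type embryos held a median of 6 of the 7 (range 1 to 7), deletion embryos 1 (0 to 6), uninjected embryos 7 (3 to 7), IgG embryos 7 (0 to 7) and anti-SMARCA5 embryos 4 (0 to 7). Of the deletion embryos, 9 held none and 18 held at most 2, against 1 wild-type embryo with at most 2. The deletion embryo with most was C05 with 6. Its 2-cell list summed to 804 CPM and its egg list to 7576 CPM. Replicates differed: the median was 0 in replicate 1 and 3 in replicate 2 of the deletion, and 6, 3 and 1 in replicates 1, 2 and 3 of anti-SMARCA5, where no embryo of replicate 3 held more than 2. After each library was thinned to 100000 counts and 1 count was enough, the medians were 6, 1, 6, 6 and 2. In the 3 wells without an embryo the 7 genes together had 1 count, of Mpdu1.

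**Figure D2:**
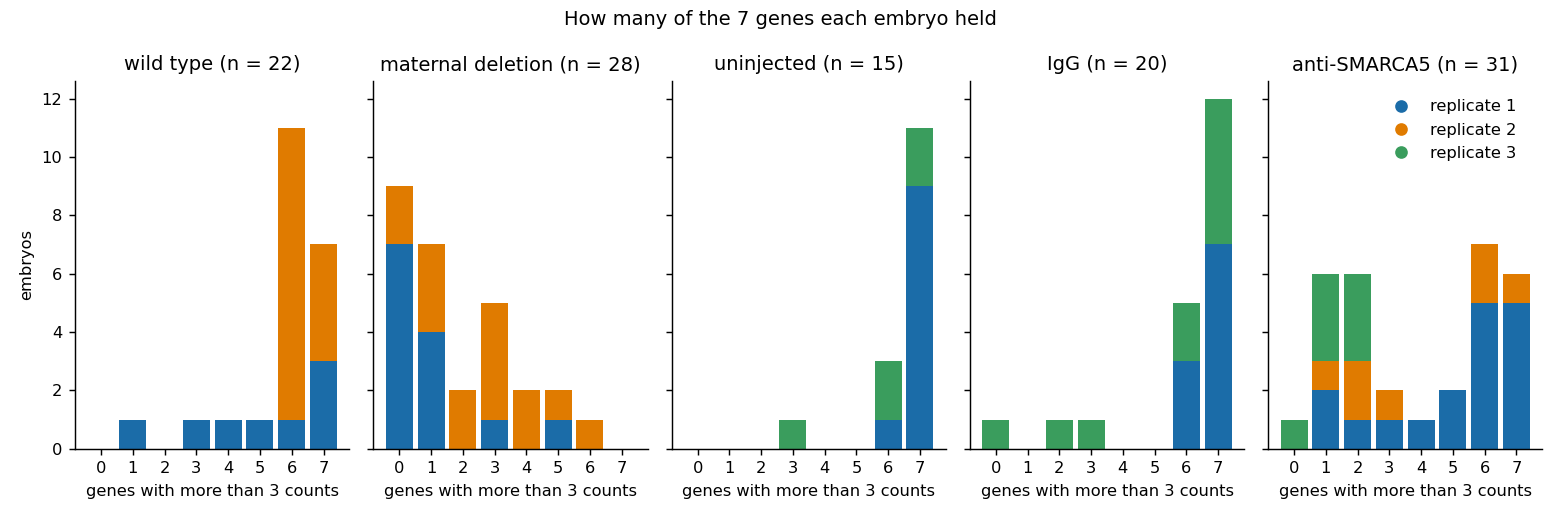
Bars count embryos (vertical axis) by how many of the 7 genes had more than 3 counts in them (horizontal axis), stacked by replicate, for each group. Deletion embryos pile up at 0 and 1, uninjected and IgG embryos at 6 and 7, and anti-SMARCA5 embryos form low and high ends.

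In the TrimAway experiment the same genes were lower after the anti-SMARCA5 antibody than in either control, but no embryo of replicates 1 and 2 lacked them all, and 6 embryos still held all 7. Against IgG, whose libraries number 20, and against uninjected embryos the comparisons share the 31 anti-SMARCA5 embryos, so they are 2 views of the same embryos. The fits had no replicate term, and the 7 anti-SMARCA5 embryos of replicate 2 had no control library of the same number. In replicate 1, Trim21 RNA was at 0 in all 10 IgG embryos and was detected in all 17 anti-SMARCA5 embryos. Antibody and Trim21 cannot be told apart there. Over all replicates, Trim21 was detected in 8 of 20 IgG, 0 of 15 uninjected and 30 of 31 anti-SMARCA5 embryos. Both fits thus also carry this difference in Trim21, and its part was not tested. The falls against IgG helped to choose Tacr3 and Stmn3, and those against uninjected embryos Mpdu1, Tmx1 and Mtrr.

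For Dohh, uninjected embryos had 11.7, 63.1 and 119 CPM (lowest, median and highest), IgG embryos 0, 30.4 and 128, and anti-SMARCA5 embryos 0, 9.22 and 103. The anti-SMARCA5 mean was 51.7% of the IgG mean in replicate 1 (34.0 against 65.7 CPM, n = 17 and 10) and 2.12% in replicate 3 (0.458 against 21.6 CPM, n = 7 and 10). In replicate 1 the median was 31.3 against 60.4 CPM, with 2 of 17 anti-SMARCA5 embryos above the IgG median and 3 below the lowest IgG embryo. In replicate 3 all 7 were at or under the detection limit. For Mmp19 the shares were 57.3% in replicate 1 (41.9 against 73.0 CPM) and 14.2% in replicate 3 (1.51 against 10.6 CPM). Its levels were 0, 38.4 and 119 CPM in uninjected, 0, 25.8 and 127 in IgG and 0, 8.64 and 125 in anti-SMARCA5 embryos. These 2 genes had the shallowest fitted changes, -0.91 (SE 0.54) and -0.73 (SE 0.56) against IgG, and -1.28 (SE 0.55) and -0.75 (SE 0.57) against uninjected embryos.

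Mpdu1, the dolichol-linked mannose factor, had 5.83, 54.3 and 119 CPM in uninjected, 0, 21.2 and 139.8 in IgG and 0, 2.19 and 72.6 in anti-SMARCA5 embryos. All 7 anti-SMARCA5 embryos of replicate 3 were at 0 counts. The log2 change was -2.20 (SE 0.56) against uninjected embryos, the seventh lowest of 10750 genes, and -1.59 (SE 0.60) against IgG. Tmx1 fell more evenly here than after the deletion: uninjected embryos had 10.02, 45.2 and 102 CPM, IgG embryos 0.720, 26.1 and 112, and anti-SMARCA5 embryos 0, 4.05 and 25.0. No anti-SMARCA5 embryo reached the median of either control, although 21 of 31 still held more than 3 counts. Its log2 change was -2.12 (SE 0.47) against uninjected embryos and -1.76 (SE 0.47) against IgG. Mtrr had 0, 50.9 and 101 CPM in uninjected, 0, 29.4 and 74.6 in IgG and 0, 5.87 and 41.2 in anti-SMARCA5 embryos, none of which reached the uninjected median. Its changes were -2.08 (SE 0.47) and -1.58 (SE 0.45).

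Stmn3 had 0, 46.4 and 99.5 CPM in uninjected, 0, 45.4 and 221 in IgG and 0, 4.33 and 56.7 in anti-SMARCA5 embryos. It was at 0 counts in all 7 anti-SMARCA5 embryos of replicate 3, and was detected in 14 of 17 of replicate 1 and 4 of 7 of replicate 2. For replicate 3 the exact Clopper-Pearson interval reaches 41.0% (95%, counting error only). That interval is a description, because Stmn3 was chosen for its fall in these libraries. The log2 change was -2.14 (SE 0.60) against IgG and -1.67 (SE 0.58) against uninjected embryos. Tacr3 had 0, 15.1 and 36.3 CPM in uninjected, 0, 21.1 and 129.8 in IgG and 0, 0.431 and 38.4 in anti-SMARCA5 embryos. Its change against IgG was the second lowest of 10447 genes, -2.77 (SE 0.64), and against uninjected embryos -1.30 (SE 0.66). Its mean was 37.5 ± 39.5 CPM (SD, n = 20) in IgG and 16.7 ± 12.8 CPM (n = 15) in uninjected embryos. In replicate 1, where IgG embryos held no Trim21, the means were 54.4 CPM in IgG and 15.9 CPM in uninjected embryos. The anti-SMARCA5 mean there, 7.67 CPM, was 14.1% of the first and 48.4% of the second. In replicate 3 the means were 20.7 CPM in IgG, 18.5 CPM in uninjected and 0.075 CPM in anti-SMARCA5 embryos. The rank against IgG thus includes a control pool above the uninjected level.

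Against IgG, 4 of the 7 genes were called lower, where 1.30% of all genes were called lower and 1.73% higher, and against uninjected embryos 4 of 7, where 10.4% were called lower and 17.5% higher (edgeR, adjusted p under 0.05). The genes were chosen on these contrasts, so nothing is read from the counts. Without replicate 1 these fits called 0 genes (edgeR, 1210 at an unadjusted p under 0.05) and 1 gene. By replicate median, the 2-cell list moved with the 7 genes among anti-SMARCA5 embryos. Its summed level was 96.7 to 2687 CPM in replicate 1 (median 1442) and 40.6 to 1906 CPM in replicate 2 (median 757). In replicate 3 it was 22.0 to 435 CPM (median 180.0). Single embryos did not all follow, such as well H06 of replicate 1, with 2481 CPM and 1 of the 7 genes. The part of the list in the result was not tested. Without well C02, which held all 7 genes and no Trim21, the anti-SMARCA5 fit against IgG called 521 genes in place of 317.

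**Figure D3:**
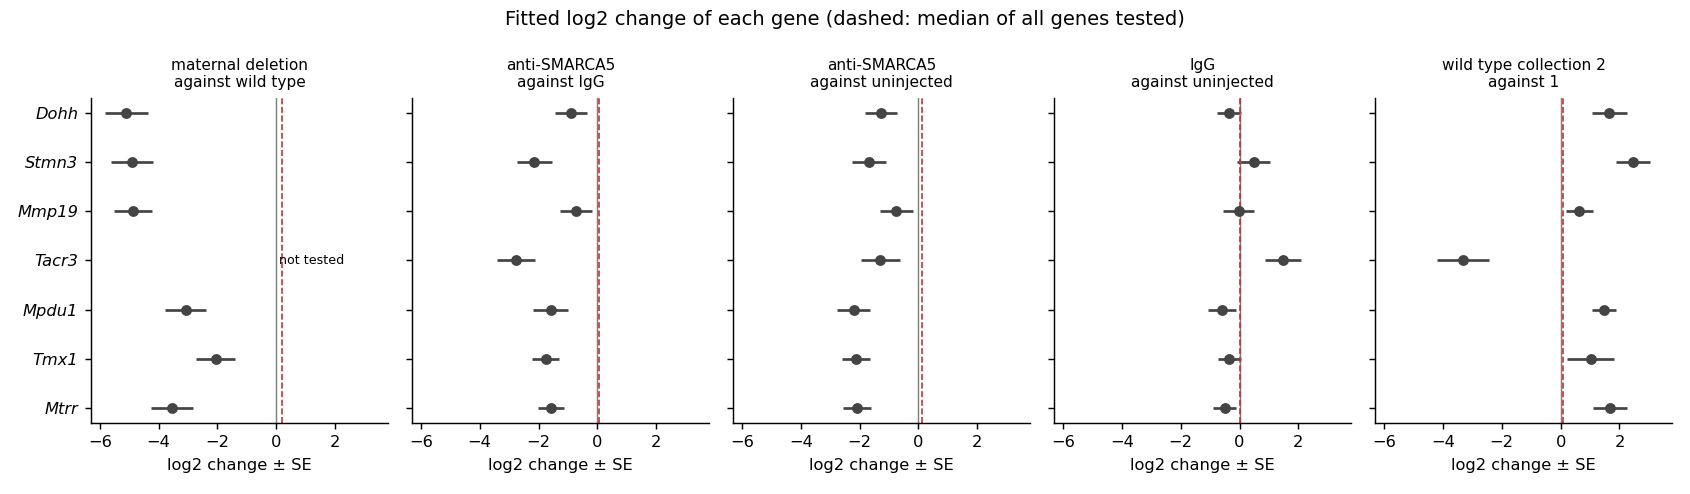
Points are fitted log2 changes of the genes with their standard errors, 1 panel per comparison, and the dashed line is the median of all genes tested. Tacr3 was not tested in the deletion panel. The other 6 lie below 0 there, and all 7 do in both anti-SMARCA5 panels; these panels chose the genes. In IgG against uninjected they run from -0.60 to 1.47, and between wild-type collections Tacr3 alone lies below 0.

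The 2 comparisons that the choice of genes did not use were IgG against uninjected embryos and the later against the earlier wild-type collection. They still share libraries with the contrasts that did. Between IgG and uninjected embryos none of the 7 was called, with 0% of 9915 genes called in edgeR's quasi-likelihood test (1440 at an unadjusted p under 0.05, and 267 called by DESeq2). Tacr3 had the widest difference, 1.47 higher on the log2 scale in IgG (SE 0.61, edgeR adjusted p = 0.255), and Mpdu1 the lowest, -0.60 (SE 0.47, adjusted p = 0.567). The other 5 lay between -0.50 and 0.48 with adjusted p of at least 0.567.

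Among those IgG and uninjected embryos, 4 had 3 or fewer of the 7 genes, all in replicate 3. IgG well A04 held none of the 7, with 346 CPM of Smarca5, 340 CPM of Trim21 and a 2-cell list of 77.8 CPM, the lowest of the IgG group, and an egg list of 6572 CPM, its highest. IgG well F03 held 2 of the 7 (2-cell list 465 CPM), IgG well B04 3 (881 CPM) and uninjected well G04 3 (1035 CPM). The remaining 31 control embryos held 6 or 7.

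Between the wild-type collections 5 of the 7 genes were called, where 38.5% of all genes were (21.5% higher and 17.0% lower in collection 2). Both collections are the reference of the deletion contrast that chose the genes. Nothing is therefore read from that count, and the p-values are a description. Collection and sequencing lane cannot be told apart there. Stmn3 was higher in collection 2 by 2.47 on the log2 scale (SE 0.58, edgeR adjusted p = 0.00149), with 147 ± 80.1 CPM (n = 14) against 19.2 ± 21.2 CPM (n = 8). Dohh was higher by 1.65 (adjusted p = 0.0271), Mpdu1 by 1.49 (adjusted p = 0.00543) and Mtrr by 1.68 (adjusted p = 0.0201). Tacr3 went the other way, by -3.32 (SE 0.87, adjusted p = 0.00368), from 36.5 ± 25.4 CPM in collection 1 to 4.45 ± 6.63 CPM in collection 2. Mmp19 (0.64, adjusted p = 0.283) and Tmx1 (1.02, adjusted p = 0.323) were not called. Tacr3 was thus detected in 7 of 8 wild-type embryos of collection 1 and in 6 of 14 of collection 2, and the deletion share of Tacr3 was 0% in the first and 30.5% in the second, from A03 alone. Among libraries of at least 500000 counts, 9 against 4, none of the 5 calls was kept (adjusted p from 0.0582 to 0.324), and all 5 kept their direction.

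The genes also varied together from embryo to embryo within a group and replicate. Over the 21 pairs the median Pearson r of log2(CPM + 1), after the mean of each group and replicate was taken off, was 0.398 over 116 embryos. The points share their library and its depth, and the median r of the 7 genes with all 6717 genes compared was 0.190. Stmn3 and Mpdu1 formed the closest pair (r = 0.711), Tacr3 and Mtrr the loosest (r = 0.0831). The median over pairs was 0.598 in IgG, 0.539 in anti-SMARCA5, 0.472 in uninjected, 0.225 in deletion and 0.164 in wild-type embryos. The median r of the 7 genes with all genes was also higher in IgG (0.319) and anti-SMARCA5 embryos (0.310) than in deletion (0.0883), uninjected (0.0726) and wild-type embryos (0.0345). The differences between groups were not tested.

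Among the 31 anti-SMARCA5 embryos, pooled over replicates, all 7 genes were higher where Smarca5 RNA was higher. These relations were chosen after values by embryo had been seen. The choice of the genes had also used these libraries, so the p-values are a description. The pooled permutations did not keep embryos within their replicate. Replicate 3 was low in Smarca5 (mean 173 CPM, against 469 CPM in replicate 1) and in the 7 genes. Pooled values thus also carry differences between replicates. In all, 66 relations were computed, with Smarca5 and Trim21 RNA, pooled, by replicate and with 2 embryos left out. The p-values came from two-sided permutation tests (exact for 7 embryos). They were adjusted over the 66, separately for Pearson's r and Spearman's rho. Pearson's r with Smarca5 ran from 0.467 for Tmx1 (permutation p = 0.00806, adjusted 0.0334) to 0.682 for Stmn3 (permutation p = 1e-05, adjusted 0.00066). Spearman's rho ran from 0.482 for Mtrr (permutation p = 0.00684, adjusted 0.0282) to 0.724 for Tacr3 (permutation p = 1e-05, adjusted 0.00033). An unadjusted p of 1e-05 is the smallest that the permutations can give. Without the 2 embryos farthest from the median of Smarca5, r was between 0.444 (Mtrr) and 0.694 (Dohh). Across 13418 genes with a mean log2(CPM + 1) above 1 the median rho with Smarca5 was 0.111 and the upper decile 0.595. Tmx1 (0.511) and Mtrr (0.482) lay below that decile, and the other 5 above it.

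Within replicate 1, with 17 embryos, r was 0.283 (Mmp19) to 0.542 (Dohh) and none passed the adjusted threshold (Dohh permutation p = 0.0268, adjusted 0.0707). In replicate 2, with 7 embryos, Stmn3 (r = 0.897, exact p = 0.00873, adjusted 0.0334), Mmp19 (0.909, exact p = 0.0103, adjusted 0.0334), Tacr3 (0.968, exact p = 0.00952, adjusted 0.0334) and Mpdu1 (0.936, exact p = 0.00278, adjusted 0.0153) passed in Pearson's r but not in Spearman's rho, and Dohh passed in rho only (0.964, exact p = 0.00278, adjusted 0.0153). In replicate 3 Stmn3 and Mpdu1 were at 0 throughout, and Dohh had r = -0.178 (exact p = 0.667, adjusted 0.697). With Trim21 RNA, which the injection brings in, r over all 31 embryos was below 0 for all 7 genes, and only Tmx1 passed (r = -0.480, permutation p = 0.00125, adjusted 0.00825, rho = -0.530). The other 6 ran from -0.107 (Mmp19) to -0.356 (Tacr3), with adjusted p of at least 0.0851. Across 13418 genes the median rho with Trim21 was 0.0262 and the lower decile -0.31. Tmx1 (rho = -0.53) and Mpdu1 (rho = -0.344) lay below that decile, and the rest of the 7 above it. Within replicate 1 Mpdu1 passed (r = -0.605, permutation p = 0.0102, adjusted 0.0334), and within replicate 2 Tacr3 (r = -0.720, exact p = 0.00952, adjusted 0.0334) and, in rho only, Dohh (-0.893, exact p = 0.0123, adjusted 0.0451). Without the 2 embryos farthest from the median of Trim21, Tmx1 (r = -0.505) and Mpdu1 (r = -0.448) passed.

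**Figure D4:**
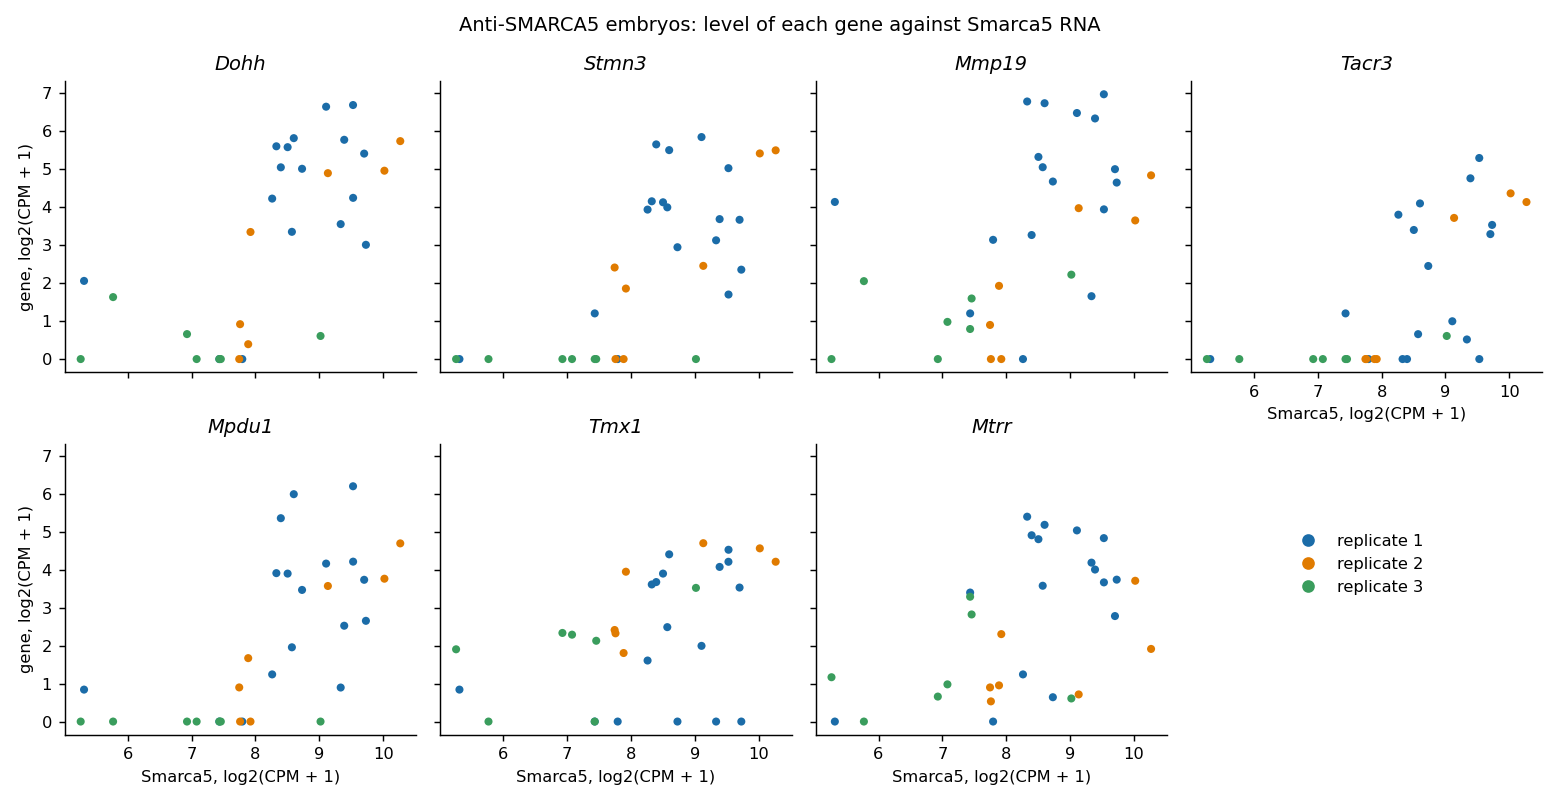
Each point is 1 anti-SMARCA5 embryo, coloured by replicate, with Smarca5 RNA on the horizontal and the gene on the vertical axis, both as log2(CPM + 1). Of the 7 replicate 3 embryos, 6 lie at low Smarca5 (37.4 to 175 CPM), where most genes are near 0, and well B05 lies at 518 CPM.

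On the chromosome, the genes beside the 7 did not all move with them after the deletion. Fastkd3, a mitochondrial RNA-binding gene, starts head to head with Mtrr: 40 bases, those printed above, lie between their RefSeq starts, and 126 bases between the spans in the count tables. Fastkd3 had medians of 67.4 CPM in wild-type and 46.3 CPM in deletion embryos and a log2 change of -0.09 (SE 0.36, edgeR adjusted p = 0.845), whereas that of Mtrr was -3.54. Fzr1, an activator of the anaphase-promoting complex 5911 bases from Dohh, changed by -0.01 (SE 0.53, adjusted p = 0.985). Beside Stmn3, Rtel1, a telomere helicase, was not called (-0.53, SE 0.41, adjusted p = 0.272), and Gmeb2, on the other side, fell by 2.45 on the log2 scale (SE 0.68, adjusted p = 0.00207).

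Mmp19 and Tmem198b lie on opposite strands and share 789 bases of exon, and Tmem198b fell by 2.27 (SE 0.65, adjusted p = 0.00297). The handling of strand is not stated, so reads of this stretch cannot be assigned to either gene, although 3533 bases of Mmp19 exons are counted in all. On the flanks of Mmp19, Wibg fell by 1.496 (adjusted p = 0.00767) and Dnajc14, a chaperone cofactor, rose by 1.26 (adjusted p = 3.55e-05). Fxr2, an RNA-binding gene beside Mpdu1, fell by 1.26 (adjusted p = 0.00908), and Cenpe, a kinesin of the kinetochore far from Tacr3, fell by 1.27 (adjusted p = 1.69e-05). Mpdu1 also shares 31 exon bases with Sox15, which did not pass the filter. Of the 9 neighbours tested, 5 were called lower and 1 higher, beside 26.4% and 30.3% of all genes. The 5 include Tmem198b, whose reads in the shared stretch cannot be told from those of Mmp19. Without replicate 1, Gmeb2 (adjusted p = 0.0564), Tmem198b (0.0521), Wibg (0.203) and Fxr2 (0.0607) were no longer called. Without replicate 2, Dnajc14 (0.124) and Fxr2 (0.354) were not.

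**Figure D5:**
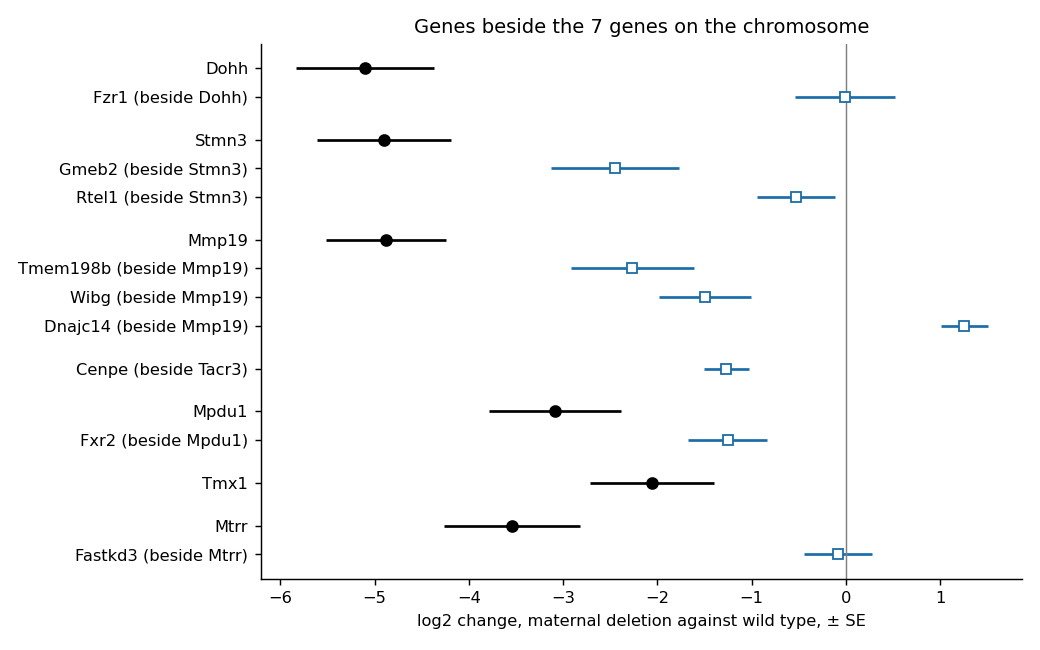
Filled circles are the 6 genes with a fitted change (Tacr3 has none) and open squares the genes beside or overlapping them, with the fitted log2 change after maternal deletion and its standard error on the horizontal axis. Fastkd3 and Fzr1 sit at 0 beside Mtrr and Dohh, and Dnajc14 lies above 0 beside Mmp19.

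The other genes of the same pathways were taken from lists written with earlier results of these data known. Of 90 listed partners, 42 passed the filter in the deletion fit, and 18 were called higher, 9 lower and 15 neither (15 higher and 12 lower when libraries were scaled to total counts only), beside 30.3% higher and 26.4% lower of all genes. The partners of the 7 thus moved in both directions. The egg genes, higher in the same deletion embryos (above), were not set against these counts.

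Around Dohh, Dhps, the enzyme of the step before it, fell by 1.56 (SE 0.60, edgeR adjusted p = 0.0235), while Eif5a (-0.29, adjusted p = 0.258) and Eif5a2 (-0.88, adjusted p = 0.106), which receive hypusine, were not called. Around Mpdu1, 12 of 22 partners in dolichol-linked glycan assembly were tested, 6 called higher and 3 lower (median 0.93, all genes 0.18). Those lower were Dpm1, the catalytic subunit of dolichol-phosphate mannose synthase (-3.14, SE 0.44, adjusted p = 6.34e-08), Dhdds (-2.72, SE 0.52, adjusted p = 1.97e-05) and Dolk, dolichol kinase (-2.28, SE 0.73, adjusted p = 0.00692). Those higher included Srd5a3 (3.44, adjusted p = 1.15e-06), Alg10b (3.37, adjusted p = 2.32e-07) and Nus1 (1.58, adjusted p = 4.85e-05), and with Alg9, Alg13 and Alg14 make up the 6. Dhdds and Nus1, which form 1 enzyme, thus moved in opposite directions.

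Around Tmx1, 14 of 16 thiol oxidoreductases of the endoplasmic reticulum were tested, 7 called higher and 1 lower (median 0.85). Tmx3 fell by 1.77 (SE 0.62, adjusted p = 0.0135), and Txndc5 (3.79, adjusted p = 3.72e-06), Pdia6 (2.76, adjusted p = 1.76e-07), Txndc11 (2.75, adjusted p = 1.48e-09), Ero1lb (2.33, adjusted p = 4.36e-06) and Dnajc10 (2.18, adjusted p = 0.000186) rose, as did Erp29 and P4hb. Around Mtrr, 9 of 18 genes of the methionine and cobalamin list were tested, 2 called higher and 4 lower (median -0.29). Mat2a, which makes S-adenosylmethionine (-2.61, SE 0.46, adjusted p = 6.17e-06), Shmt1 (-2.36, adjusted p = 0.000106) and Cd320, a cobalamin carrier receptor (-1.46, adjusted p = 4.93e-05), were among those that fell. Shmt2 (1.75, adjusted p = 0.00108) and Mmadhc (1.56, adjusted p = 0.00225) rose. Without replicate 1, Dhps, Tmx3, Mmadhc, Alg9, Alg14, P4hb and Stmn1 were among the partners no longer called (adjusted p from 0.0533 for Stmn1 to 0.164 for Tmx3). Without replicate 2, Cd320 (-0.18, adjusted p = 0.729), Alg13 (0.35, 0.297), Erp29 (0.44, 0.393), P4hb (0.74, 0.0585) and Stmn1 (0.34, 0.623) were not called. Partners also differed between the wild-type collections. Of 31 tested, 4 were called higher and 4 lower in collection 2, beside 21.5% and 17.0% of all genes. Cd320 (2.09), Dhps (1.62), Mat2a (0.91) and P4hb (0.76) were higher, and Alg10b (-2.58), Nus1 (-1.61) and Alg13 (-1.28) were among the lower.

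For the other 3 genes few relatives were expressed. Of 3 other stathmins only Stmn1 was tested and rose by 1.07 (SE 0.47, adjusted p = 0.0469), a call lost under 5 alternatives (adjusted p from 0.0533 to 0.623). Of 23 other metalloproteinases and their inhibitors 2 were tested, Mmp16 (5.55, SE 0.79, adjusted p = 1.02e-07) and Mmp2 (2.13, SE 0.62, adjusted p = 0.00306), and both rose. Of 5 other tachykinin genes only Tac2, the precursor of neurokinin B, was tested (1.45, adjusted p = 0.068).

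After the antibody most partners were not called in either comparison. Against IgG, where 3.03% of all genes were called, 54 partners were tested, and Dolk fell by 1.51 (SE 0.38, edgeR adjusted p = 0.0277) and Mmp9 rose by 2.92 (SE 0.69, adjusted p = 0.0243). DESeq2 called 1 higher and 3 lower, and the fit without the low-count filter 5 and 3. Against uninjected embryos, where 17.5% of genes were called higher and 10.4% lower, 7 of 56 were higher and 7 lower. Of the lower ones, Dolk (-1.60, adjusted p = 0.00494), Shmt1 (-1.40, adjusted p = 0.00465), Mat2a (-1.41, adjusted p = 0.0114), Cd320 (-1.37, adjusted p = 0.0136) and Dhdds (-0.95, adjusted p = 0.0485) were also lower after the deletion. Dpm2 (-1.13, adjusted p = 0.0289) was not called there (-0.23, adjusted p = 0.66), and P4hb (-0.92, adjusted p = 0.0162) was higher there. With total counts only, the split was 1 higher and 10 lower. No partner was called in either fit without replicate 1, and without replicate 3 Cd320 (adjusted p = 0.0536), Dhdds (0.0724) and Dpm2 (0.0782) were no longer called against uninjected embryos.

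By mean log2(CPM + 1) over the 11 combinations of group and replicate, the gene most like each of the 7 among 6717 genes was Zfp707 for Dohh (Pearson r = 0.997), Tada2a for Stmn3 (0.991), Brms1 for Mpdu1 (0.989), Son for Mmp19 (0.984), Rpl37a for Mtrr (0.982), Dolk for Tmx1 (0.969) and RP24-245M20.2 for Tacr3 (0.956). H2-Q6 and H2-Q7, near-identical class I genes whose reads may be split between them, came next for Mmp19 (0.982 each). The 11 points mix 2 separately made tables, and these values are a description.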

How the data were processed

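Polyadenylated RNA of 138 wells was measured, 135 with an embryo. The authors deposited 2 tables of raw read counts per gene, which per the submitters' processing notes came from reads trimmed with Trim Galore 0.6.5 and cutadapt 2.3 and aligned with HISAT2 2.1.0 to GRCm38. Strand, multimapping and duplicate handling are not given in the sources used here. Low odd counts outnumbered even ones (134662 table cells with 1, 30228 with 2, 84269 with 3), and intervals cover counting error only. Lines of 57 repeated gene IDs were summed. Groups came from the labels, and 19 libraries under 100000 counts were left out. No 2 kept libraries were identical.

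Counts were fitted with edgeR 4.0.16 (TMM, filterByExpr, robust quasi-likelihood F test, Benjamini-Hochberg over all genes, R 4.3.3), tested on simulated data, with DESeq2 1.42.0 as an alternative. A standard error is the log2 change divided by the square root of F. CPM uses the library total, log2(CPM + 1) a prior of 1. Detection means more than 3 counts. Relations used 100000 permutations. The members and all lists were chosen with earlier results of these data known. Named beside the members are called partners, adjacent or overlapping genes, the genes most alike in pattern, and label checks. In the deletion experiment the replicate number also marks the sequencing lane, and same-numbered group means deviated together (r = 0.537 across genes). Other scalings, filters, depths, blocks and left-out libraries were tried, with their effect in the closing section. A partner gene is counted in its list but not reported here by name.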

Additional observations from a re-analysis of the deposited data

Results flagged for a closer look

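Of the values by embryo, 7 lay far from the other embryos of their group and replicate, judged by the gap to the nearest embryo over the whole range on the log2(CPM + 1) scale. With 49 groups of 4 to 10 embryos looked at and about 1 in 20 flagged by chance, a few are to be expected. In IgG replicate 1, well A10 had the lowest Stmn3 (0 CPM, next 19.2), Mmp19 (5.27 CPM, next 35.3) and Mtrr (2.93 CPM, next 18.7), while its Tacr3 was 100.1 CPM, and well H09 had the lowest Dohh (6.23 CPM, next 31.0) with the highest Tacr3 of the group, 129.8 CPM. In wild-type replicate 1, well F07 was the only embryo without Tacr3 (0 CPM, next 21.7). The other 2 were high values that rest on 1 or 2 counts in anti-SMARCA5 replicate 3, Dohh in well E05 (2.102 CPM, next 0.578) and Tacr3 in well B05 (0.525 CPM, next 0).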

How the results depend on the processing

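In the contrasts that chose the genes, each log2 change kept its direction under all alternatives run. After the deletion Dohh ranged from -5.53 to -4.85 and Tmx1 from -2.45 to -1.94, and against IgG Tacr3 ranged from -3.84 to -2.69. Genes called after the deletion numbered 4825, 10416 without the low-count filter, and 2801 to 3879 with a replicate left out. Against IgG 317 were called, 1283 by DESeq2, 64 with total counts only, 3010 without the filter, 150 at a depth of 500000, 521 without well C02, an alternative chosen after seeing the data, and 0 to 591 with a replicate left out. Against uninjected embryos 2999 were called, 6184 without the filter and 1 to 2921 with a replicate left out. Between IgG and uninjected embryos 0 were called, 267 by DESeq2, 881 without the filter, and 0 to 1 with a replicate left out. Between the wild-type collections 2693 were called, and 812 at a depth of 500000. The cause of these changes was not tested.

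With the replicate block, 4907 genes were called after the deletion, 2691 against IgG, 3426 against uninjected embryos and 0 between IgG and uninjected embryos. Among the pathway partners it called 2 higher and 8 lower against IgG (1 and 1 without it) and 3 higher and 9 lower against uninjected embryos (7 and 7 without it). In TrimAway the numbers name pools only, with 2 shared numbers per comparison and correlations of 0.590, 0.0902 and 0.432. No paired analysis was possible between the wild-type collections because they are the replicates of 1 group. Scaling to total counts only moved the median of all genes from 0.18 to -0.04 after the deletion, from 0.04 to -0.10 against IgG, from 0.13 to -0.29 against uninjected embryos, from 0.03 to -0.23 between IgG and uninjected embryos and from 0.08 to 0.49 between collections. The share called higher among called genes went from 57.1% to 26.6% against IgG, from 62.9% to 17.9% against uninjected embryos and from 55.8% to 74.1% between collections.

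Directions turned for values that were not called. With each replicate left out, IgG against uninjected ran from -0.51 to 0.27 for Tmx1, from -0.7357 to 0.0096 for Dohh and from -1.005 to 0.49 for Mmp19, and after the deletion Fzr1 ran from -0.08455 to 0.20, Rtel1 from -0.69 to 0.084 and Fastkd3 from -0.0746 to 0.068. Fzr1 also turned with DESeq2 (0.053), with its size factors in edgeR (0.062), without A04 (0.020) and without A04, G05 and H05 (0.041). Within replicate 3 the relation of Dohh turned with Trim21 (0.180) and with Smarca5 (-0.178). The share of embryos with a gene is limited by depth, and values of 3 counts or fewer cannot be told from 0 here.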
